A study of Mus musculus with 8 samples.

Results

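Broad CpG-dense domains of the mouse autosomes are described here from 8 reduced representation bisulfite sequencing (RRBS) libraries. Chromosomes 1 to 19 were divided into tiles of 1 kb, and only CpGs that reached 10 reads in each of the 8 libraries were counted. A domain is a run of at least 3 neighbouring tiles that each hold 11 or more such CpGs. The rule used coverage and CpG number and no methylation value. It gave 327 domains with 1040 tiles, which is 1.24% of the 84021 tiles with any common CpG and 7.21% of the 14419 dense tiles. These tiles hold 32662 of the 616929 common CpGs (5.29%). Of the domains, 281 were 3 tiles long, 37 had 4, 6 had 5, 2 had 6 and 1 had 7.

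The libraries came from mouse embryonic stem cells (ESCs, strain 129/SvP) plated sparsely in serum plus LIF, the cytokine that keeps such cells self-renewing. All 8 cultures shared this medium. Cells received 1 mM L-proline plus 500 µM vitamin C, 500 µM vitamin C, 1 mM L-proline or no addition, and were collected on day 5 or day 2. Each of these groups had 1 library. The title of the series sets the supplements against each other, so the comparisons ask how methylation differed with vitamin C, with L-proline and with day. The labels name no separate cultures, animals or batches, so the spread between matched libraries, which may be technical, is the only error that can be given. The data hold DNA methylation only, so the labelled cell type could not be checked against expressed markers.

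CpG-dense DNA in mammals mostly forms CpG islands, which lie at many promoters and are normally kept free of methylation. Cytosine methylation is copied by DNMT1 and laid down anew by DNMT3 enzymes, and TET enzymes remove it by oxidising 5-methylcytosine. Vitamin C is a cofactor of such dioxygenases. Long islands are typical of genes for developmental regulators, where Polycomb complexes often bind in embryonic stem cells. RRBS reads fragments cut out by a restriction enzyme and so samples CpG-dense DNA most fully. After bisulfite treatment, 5-hydroxymethylcytosine is read as methylated too.

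The libraries listed 762041 to 1006832 CpGs, the common CpGs had a median coverage of 27 to 56 reads, and a domain tile had a median of 790 to 1675 reads. No methylated read in a tile of median depth would allow a level of up to 0.179% to 0.380%, taking 3 reads as the limit of a count of 0. On the lambda contig, customarily an unmethylated control, 0.195% of cytosines read as methylated with both supplements and 0.504% with vitamin C on day 5, against 0.490% with L-proline and 0.513% untreated. On day 2 these values were 0.371% and 0.317% with vitamin C, against 0.475% with L-proline and 0.293% untreated. Lambda was lower with vitamin C in 3 of 4 pairs and its ranges with and without overlapped, and levels under about 1% lie close to this background. Lambda had 842 to 8888 reads per library.

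Gene starts were put on the domains by matching RefSeq promoter sequences (300 bases, of which 250 lie before the start) to the spacing of the listed CpGs. Of 31396 promoters, 15382 held enough CpGs and 7118 were kept. At least 1 placed promoter lay in 179 domains, with 213 genes in all, and 32 domains held 2 or more genes. The 6 promoters below show what a domain looks like in sequence at its methylated and its unmethylated extremes. They were chosen after their values were seen. The table of sequences is RefSeq for build GRCm38.p6, and positions are those of the files' build, mm9. Capitals mark the CpGs that reached 10 reads in every library.

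Clcn4, chr7:7252219-7252518, minus strand, a chloride/proton exchanger gene in the domain of highest level.
Clcn4: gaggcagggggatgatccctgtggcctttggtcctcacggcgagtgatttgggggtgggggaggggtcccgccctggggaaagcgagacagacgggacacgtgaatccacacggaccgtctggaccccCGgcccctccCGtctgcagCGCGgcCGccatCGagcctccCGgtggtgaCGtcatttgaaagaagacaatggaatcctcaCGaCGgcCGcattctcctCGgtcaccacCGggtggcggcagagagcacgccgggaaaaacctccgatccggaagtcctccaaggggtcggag
Tmem59l, chr8:73011198-73011497, minus strand, in a tile with one of the 5 largest losses with vitamin C.
Tmem59l: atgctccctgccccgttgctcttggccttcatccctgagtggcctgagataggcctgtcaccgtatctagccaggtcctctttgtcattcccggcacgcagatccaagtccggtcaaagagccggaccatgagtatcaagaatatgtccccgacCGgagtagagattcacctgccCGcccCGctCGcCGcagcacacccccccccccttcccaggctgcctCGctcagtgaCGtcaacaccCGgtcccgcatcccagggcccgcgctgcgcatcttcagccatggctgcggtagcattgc
Gata2, chr6:88148408-88148707, plus strand, a transcription factor of blood formation, at the unmethylated end of a domain whose other end was methylated.
Gata2: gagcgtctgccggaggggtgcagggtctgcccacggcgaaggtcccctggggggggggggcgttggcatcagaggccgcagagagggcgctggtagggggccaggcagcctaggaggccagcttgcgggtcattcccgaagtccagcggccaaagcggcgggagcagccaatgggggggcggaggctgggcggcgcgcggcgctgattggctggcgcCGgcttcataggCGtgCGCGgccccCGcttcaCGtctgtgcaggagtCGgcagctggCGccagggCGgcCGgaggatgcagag
Wnt1, chr15:98620038-98620337, plus strand, a secreted signal of midbrain development.
Wnt1: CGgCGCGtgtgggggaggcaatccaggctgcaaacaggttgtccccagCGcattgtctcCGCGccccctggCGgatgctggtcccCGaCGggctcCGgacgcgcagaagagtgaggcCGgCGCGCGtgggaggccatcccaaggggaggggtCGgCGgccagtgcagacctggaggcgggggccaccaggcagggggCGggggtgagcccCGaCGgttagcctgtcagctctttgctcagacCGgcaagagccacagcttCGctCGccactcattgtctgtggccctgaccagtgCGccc
Wnt10b, chr15:98608532-98608831, minus strand, another Wnt ligand, in a separate domain beside that of Wnt1.
Wnt10b: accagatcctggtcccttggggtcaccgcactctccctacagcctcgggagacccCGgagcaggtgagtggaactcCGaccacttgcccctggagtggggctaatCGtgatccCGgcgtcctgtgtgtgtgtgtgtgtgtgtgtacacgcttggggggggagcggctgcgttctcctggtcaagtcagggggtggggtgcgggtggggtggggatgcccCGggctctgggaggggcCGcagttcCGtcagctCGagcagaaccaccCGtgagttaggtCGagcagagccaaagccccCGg
Six2, chr17:86087545-86087844, minus strand, a homeobox factor of kidney progenitors, in the middle of an unmethylated domain.
Six2: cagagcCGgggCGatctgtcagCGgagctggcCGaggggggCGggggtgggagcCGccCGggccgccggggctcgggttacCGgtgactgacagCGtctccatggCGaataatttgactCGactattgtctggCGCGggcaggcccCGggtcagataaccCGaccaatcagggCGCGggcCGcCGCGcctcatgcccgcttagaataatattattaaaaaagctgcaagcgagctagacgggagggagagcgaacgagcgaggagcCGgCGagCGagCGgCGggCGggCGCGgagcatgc

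All 6 sequences are GC-rich, yet their levels were far apart. Over all libraries the capital CpGs averaged 57.6% at Clcn4, 12.8% at Tmem59l, 5.64% at Wnt1, 2.36% at Wnt10b, 0.577% at Six2 and 0.528% at Gata2. The 13 covered CpGs of Clcn4 had means of 33.5% to 62.6% each, so none was unmethylated. Of the 28 covered CpGs of Six2, 22 averaged under 1%.

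Promoters placed in domains had a median of 30 CpGs and 69.8% GC over 238 sequences, against 28 CpGs and 67.3% GC over 6452 promoters placed elsewhere. All 31396 promoters of the table had a median of 7 CpGs and 53% GC. The letters TATAAA, searched on both strands, were found in 6 domain promoters (2.52%), in 3.67% of the other placed promoters and in 13.6% of all. The letters CCAAT, searched likewise, were found in 29.4%, 32.0% and 37.3% of the same sets. CCGG was in every placed promoter and in 53.5% of all, and placement itself required at least 8 listed CpGs.

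Domain tiles were nearly unmethylated, and the little methylation they had was lower with vitamin C. On day 5 the mean over the 1040 tiles was 1.29% with both supplements and 1.06% with vitamin C, against 3.61% with L-proline and 2.46% in untreated cells. On day 2 it was 1.46% with both and 1.27% with vitamin C, against 2.50% with L-proline and 1.99% untreated. Every library with vitamin C was thus below every library without it, and L-proline on day 5 was the highest.

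The typical tile hardly differed, and a minority carried the means. Median levels ran from 0.583% with vitamin C on day 5 to 1.02% with L-proline on day 5. Tiles at 5% or more numbered 41 with both supplements and 28 with vitamin C on day 5, against 180 with L-proline and 127 untreated. On day 2 they numbered 50 and 38 with vitamin C, against 123 with L-proline and 98 untreated. Between 7 and 48 tiles per library had no methylated read.

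**Figure D1:**
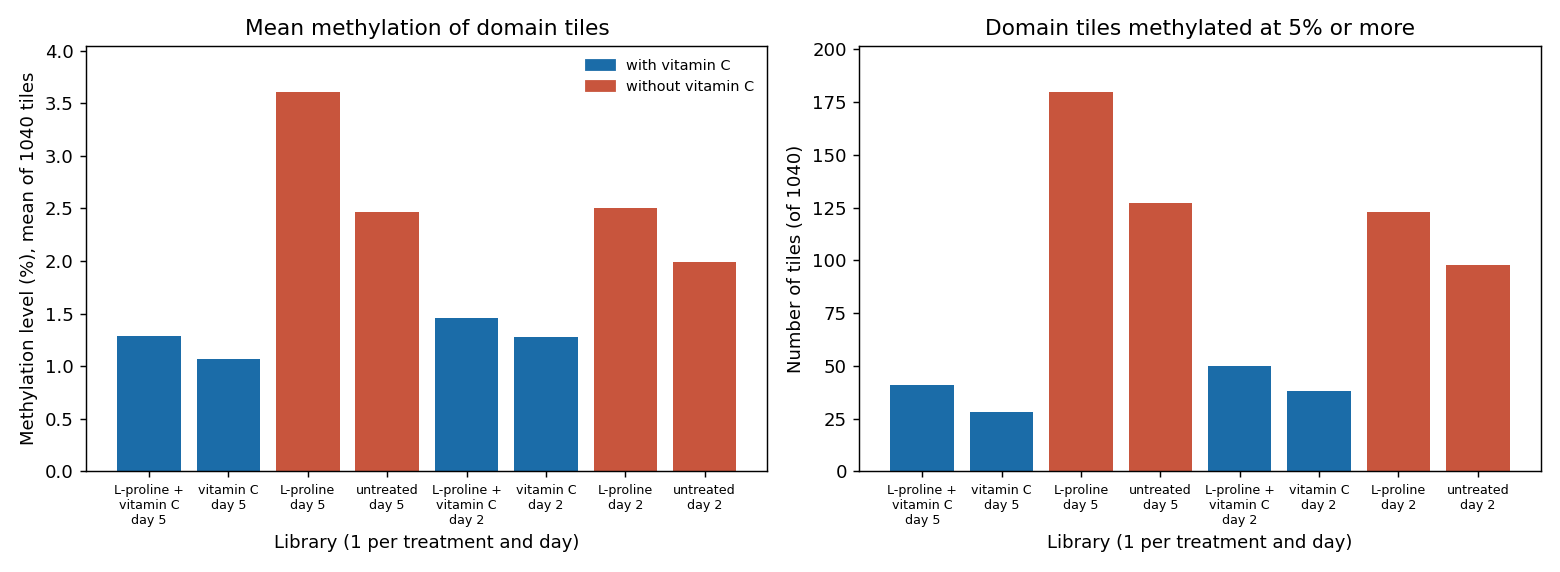
The left bars give the mean methylation level (%) of the 1040 domain tiles in each library and the right bars the number of these tiles at 5% or more, with libraries with vitamin C in blue and those without in red. With vitamin C the means are 1.06% to 1.46% and the counts 28 to 50, against 1.99% to 3.61% and 98 to 180 without it.

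Compared with the 13379 dense tiles that stand alone or in runs of 2, domain tiles had a lower mean and a slightly higher median. The mean was lower by 1.45 ± 0.158 points (a difference of -1.45, SD, n = 8 libraries), in 8 of 8 (exact sign-flip permutation p = 0.0078, the smallest that 8 libraries allow). The median was higher by 0.0738 ± 0.0515 points, also in 8 of 8 (p = 0.0078 in the same exact test). This gap in medians is small beside the lambda background of 0.195% to 0.513%. All 8 libraries measure the same tiles, so both p-values cover the spread between libraries and not between tiles. CpG number differed too, with a mean of 31.4 covered CpGs in domain tiles and 27.6 in the other dense tiles. The lower mean lay in tiles of 11 to 20 CpGs. Those averaged 4.45% in domains and 7.59% in other dense tiles without vitamin C, and 1.96% and 4.84% with it. At 21 to 40 CpGs the means were 1.92% and 1.83% without vitamin C, and 0.988% and 1.04% with it. At 41 or more they were 0.947% and 0.899% without it, and 0.634% and 0.635% with it.

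Single CpGs inside domains were seldom methylated. Of the 32662 domain CpGs, 68.9% averaged under 1% over the 8 libraries. Only 271 (0.830%) averaged 20% or more, 54 averaged 50% or more, and the 271 lay in 65 domains. The top 1% of CpGs held 23.2% of the summed level and the top 5% held 47.8%. By whole domain, 183 averaged under 1%, 75 lay at 1 to 2%, 55 at 2 to 5%, 11 at 5 to 10%, 2 at 10 to 20% and 1 above 20%. The median domain was at 0.857%, and domains ranged from 0.387% to 43.1%.

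With vitamin C, domain tiles averaged 1.27%, against 2.64% without it, a mean matched difference of -1.37 ± 0.692 points (SD, n = 4 pairs). All 4 pairs were lower (exact sign-flip permutation p = 0.125, which is as small as 4 pairs can reach). On day 5 the difference was -2.32 points on top of L-proline and -1.40 without it. The day 2 differences were -1.05 and -0.717. The levels with vitamin C were 0.357 and 0.432 times those without it on day 5, and 0.582 and 0.640 times on day 2.

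In points this difference was smaller than elsewhere, and as a share of the level without vitamin C it was larger. The shares kept are ratios to the matched library without vitamin C, not to an earlier time. All other tested tiles averaged 34.8% with and 42.6% without vitamin C, a difference of -7.81 points, so the gap of domains minus rest was 6.44 ± 2.79 points. As a ratio, domain tiles kept 0.490 of their level and all other tiles 0.818 (geometric means of 4 pairs), a log2 gap of -0.74 ± 0.27. The other dense tiles, with levels closer to the domains, kept 0.637, a log2 gap of -0.38 ± 0.13. Each gap had the same sign in 4 of 4 pairs (p = 0.125 in the exact sign-flip permutation test), and the sign turned with the scale. The ratio gap was also seen at matched CpG number. Tiles of 11 to 20 CpGs kept 0.450 in domains and 0.644 in other dense tiles, those of 21 to 40 kept 0.521 and 0.581, and those of 41 or more kept 0.678 and 0.717. Level was not matched, with 4.45% and 7.59% without vitamin C at 11 to 20 CpGs. At 41 or more the means were 0.634% to 0.947%, near the lambda background.

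**Figure D2:**
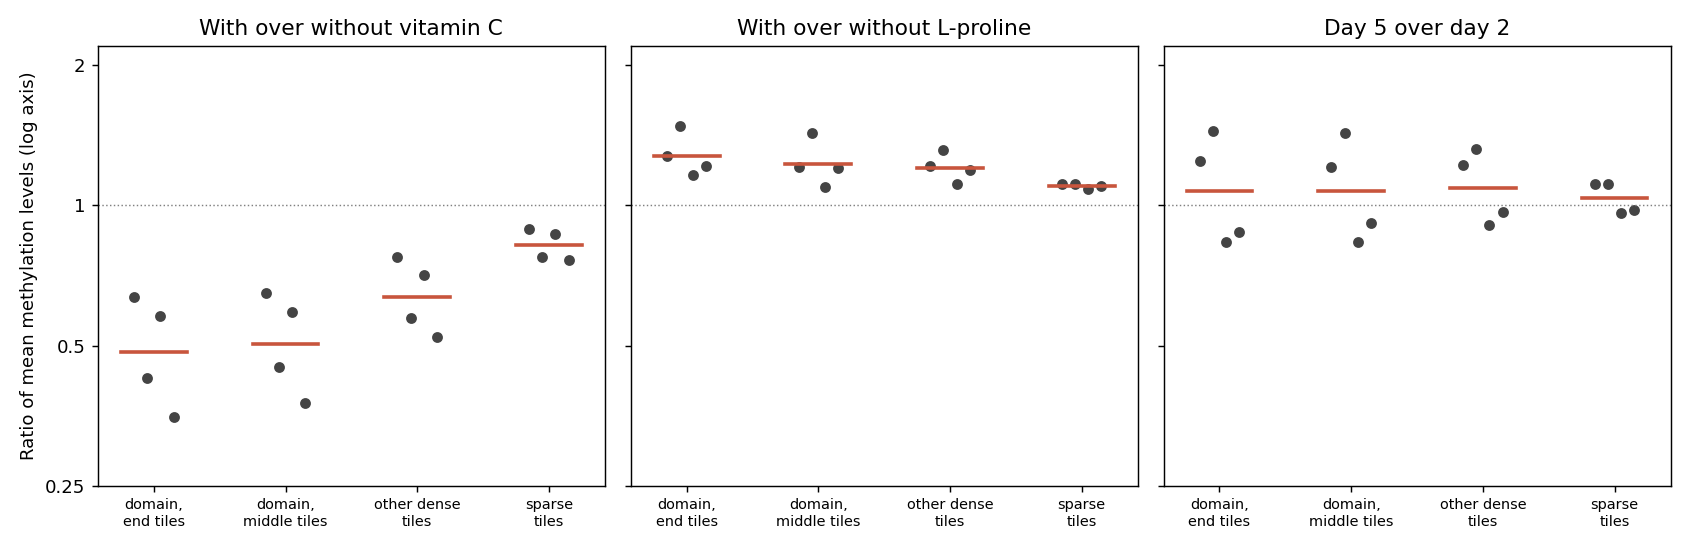
Ratios of mean methylation levels (log axis) are shown for vitamin C with over without, L-proline with over without, and day 5 over day 2, in the end tiles and middle tiles of domains, in other dense tiles and in sparse tiles of 3 to 10 CpGs. Points are the 4 matched pairs and lines their geometric means. For vitamin C the lines lie at 0.485 in end tiles and 0.504 in middle tiles, against 0.637 in other dense and 0.823 in sparse tiles.

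The few methylated tiles held most of the loss. The 91 tiles that averaged 5% or more over all libraries (8.75% of domain tiles) differed by -9.34 points with vitamin C and held 59.6% of the summed difference. The 123 tiles of 2 to 5% held 25.3%, the 145 tiles of 1 to 2% held 9.53%, and the 681 tiles under 1% held 5.56%. To keep the classing apart from the difference, tiles were also classed by the untreated library of day 2 for day 5 comparisons, and the reverse. Tiles then at 5 to 10% kept 0.341 of their level, those at 10% or more 0.473, those at 2 to 5% 0.386, those at 1 to 2% 0.510, and those under 1% kept 0.809. For the last class both levels lie near the lambda background, whose part in that ratio was not tested.

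Few domain tiles passed the test across all tiles. A linear model (limma) on log2 ratios of methylated to unmethylated reads, with an additive term per factor, was fitted over all 49568 tiles with 3 or more CpGs, and all 1040 domain tiles were among them. Requiring an adjusted p under 0.05 together with 10 points or more, 29 domain tiles (2.79%) in 27 domains were lower with vitamin C and 0 were higher, against 23.5% of all tested tiles called lower. Among other dense tiles 3.83% were called. The 29 tiles had a median difference of -12.98 points, and 22 of them were end tiles. A domain tile at the typical level has less than 10 points to lose.

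Without the minimum of 10 points, limma called 231 domain tiles lower (22.2%, in 155 domains), against 34.7% of all tested tiles. It called 3 higher, against 0.173% of all. Of the 231, 169 were end tiles (25.8% of end tiles) and 62 middle tiles (16.1%), and 18.8% of other dense tiles were called by this rule. On the log2 scale the median vitamin C effect over all tested tiles was -0.94, and over domain tiles it was -0.49, which is 0.45 above that shift. When each library was centred to one median, which removes the shift, 0 domain tiles were lower and 246 (23.7%) higher at an adjusted p under 0.05. Of all tested tiles, 0.472% were then lower and 12.5% higher, and of other dense tiles 0.232% and 27.5%. After that step no domain tile was called as losing more than the shift of all tiles. A quasi-binomial model with the minimum of 10 points called 2 domain tiles, and its share over all tiles was not counted. Of the 29 calls, 11 were left without the untreated or the L-proline library of day 5, 14 without vitamin C of day 5 and 5 without both supplements of day 5, as counts and not as shared tiles.

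Counted by domain, 171 (52.3%) were lower with vitamin C in 4 of 4 pairs and 5 were higher. By tile, 371 (35.7%) were lower in 4 of 4, as were 49.3% of all tested tiles and 30.1% of other dense tiles.

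With L-proline, domain tiles averaged 2.22%, against 1.70% without it. The mean matched difference was 0.517 points with an SD of 0.446 over 4 pairs, all higher (exact permutation p = 0.125 by sign flips). Without vitamin C the day 5 pair differed by 1.15 points and the day 2 pair by 0.510, and in the presence of vitamin C by 0.226 and 0.182. Without the untreated or the L-proline library of day 5 the mean difference was 0.306 points. Levels with L-proline were 1.26 times those without it in domain tiles, 1.21 times in other dense tiles and 1.10 times in all other tested tiles. The log2 gap to all other tiles was 0.19 ± 0.14 (same sign in all pairs, exact permutation p = 0.125). Tiles at 5% or more held 58.1% of this difference. By domain, 88 (26.9%) were higher in 4 of 4 pairs and 7 lower. By tile, 193 (18.6%) were higher in 4 of 4, against 28.3% of all tested tiles and 17.6% of other dense tiles.

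No domain tile was called for L-proline, as was true of 0% of all tested tiles. Limma gave no adjusted p below 0.222. Without adjustment, p was under 0.05 for 69 higher domain tiles (6.63%) and 11 lower ones (1.06%), against 15.3% and 0.757% of all tested tiles. The quasi-binomial model also called 0 domain tiles.

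Day gave no common direction. Domain tiles averaged 2.11% on day 5 and 1.81% on day 2, a mean matched difference of 0.302 points with an SD of 0.623 over 4 pairs (exact permutation p = 0.5 by sign flips). The difference was 1.11 points with L-proline and 0.472 in untreated cells, and -0.165 with both supplements and -0.210 with vitamin C. Without either L-proline library the mean difference was 0.0322 points, without either vitamin C library 0.472, and without either library with both supplements 0.458. Day 5 was higher in both pairs without vitamin C and lower in both pairs with it, as in other dense tiles and in sparse tiles. No domain tile was called, as for 0% of all tested tiles (no limma adjusted p below 0.587). Without adjustment, limma p was under 0.05 for 30 higher domain tiles (2.885%) and 11 lower ones (1.06%). The shares were 6.59% and 0.968% of all tested tiles, and 4.77% and 1.17% of other dense tiles. The quasi-binomial model called no domain tile for day. A vitamin C by day term in limma called 0 tiles, and at an unadjusted p under 0.05 it held 73 domain tiles (7.02%), against 12.5% of all.

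The ends of domains carried more methylation than their middles. A domain has 2 end tiles and 1 or more middle tiles, so there were 654 end tiles and 386 middle tiles. An end is where dense RRBS coverage stops, which need not be where an island stops. On day 5, end tiles averaged 1.501% with both supplements and 1.23% with vitamin C, against 4.28% with L-proline and 2.89% untreated. Middle tiles of the same domains averaged 0.903% and 0.747% with vitamin C, against 2.32% with L-proline and 1.61% untreated. End minus middle, averaged over domains, was 0.999 ± 0.505 points (SD, n = 8 libraries), higher in 8 of 8 (exact sign-flip permutation p = 0.0078). It ranged from 0.487 points with vitamin C on day 5 to 1.96 with L-proline on day 5.

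In most domains the ends were higher, but by little. By library, the ends were the higher in 201 to 238 of the 327 domains. In 221 domains (67.6%) the ends and the middle lay within 1 point of each other. The ends were higher by 2 points or more in 56 domains and lower by as much in 11, and the median difference over domains was 0.189 points. The ends were higher in all 8 libraries in 87 domains and lower in all 8 in 15.

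The 2 ends of a domain were also looked at apart. The higher end averaged 3.75%, the lower end 0.841% and the middle 1.30%. The higher end is chosen by its level, so a gap between the ends is built in and these means are a description. One end at 5% or more was found in 67 domains, and 5 of these had both ends at that level. Whether this count of 5 differs from that of unlinked ends was not tested. In 46 domains an end at 5% or more stood beside a middle under 2%.

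CpG number moved with position, since end tiles held a mean of 26.6 covered CpGs and middle tiles 39.5. Among tiles of 11 to 20 CpGs, ends averaged 3.46% and middles 2.39%, a difference of 1.07 points in 8 of 8 libraries (exact sign-flip permutation p = 0.0078). Among tiles of 21 to 40 CpGs the difference was 0.0331 points, in 5 of 8 (p = 0.117 in the same exact test). Among tiles of 41 or more it was 0.148 points, in 7 of 8 (exact p = 0.0156). The excess at ends was thus found mainly in tiles of few CpGs. In the 9 domains of 5 or more tiles it was reversed, with ends lower than middles by 0.606 points (-0.606, 49 tiles, exact sign-flip permutation p = 0.0078). In the 5 longest domains the difference was -2.55, -0.476, -0.242, -0.189 and 0.122 points. In all these tests the 8 libraries measure the same domains, so p covers the spread between libraries and not between domains.

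As shares of their level, ends and middles differed by similar amounts with each factor. With vitamin C, ends differed by -1.63 points and middles by -0.843, a gap of -0.788 ± 0.418 (same sign in all pairs, exact permutation p = 0.125). As ratios, ends kept 0.485 and middles 0.518. With L-proline the gap was 0.334 ± 0.262 points (4 of 4 pairs, exact p = 0.125; 0.220 without the untreated or the L-proline library of day 5), with ratios of 1.28 at ends and 1.22 in middles. For day the gap was 0.164 ± 0.352 points, positive in 2 of 4 (exact p = 0.5), and it was 0.0219 to 0.266 with each library left out.

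Outside the domains the level climbed. Only 123 of 654 domain sides had a neighbouring tile with 3 or more common CpGs. These neighbours averaged 9.26%, and 80 of them (65.0%) were under 5%. The next tiles outward averaged 15.8% (77 tiles), 20.2% (66), 20.9% (66) and 23.7% (51). End tiles averaged 2.30% and the tiles next to them inside 1.37%. With vitamin C, the neighbours kept 0.523 of their level and the outermost tiles 0.633, against 0.485 in end tiles. Median levels from the neighbours outward were 2.65%, 4.03%, 7.50%, 6.96% and 11.98%. Tiles measured outside are a subset with their own CpG number. It fell from a mean of 26.6 in end tiles to 5.93 in the neighbours, so that step also runs along CpG density. Farther out it did not keep falling, with a mean of 9.51 in the outermost tiles, while the mean level still climbed.

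**Figure D3:**
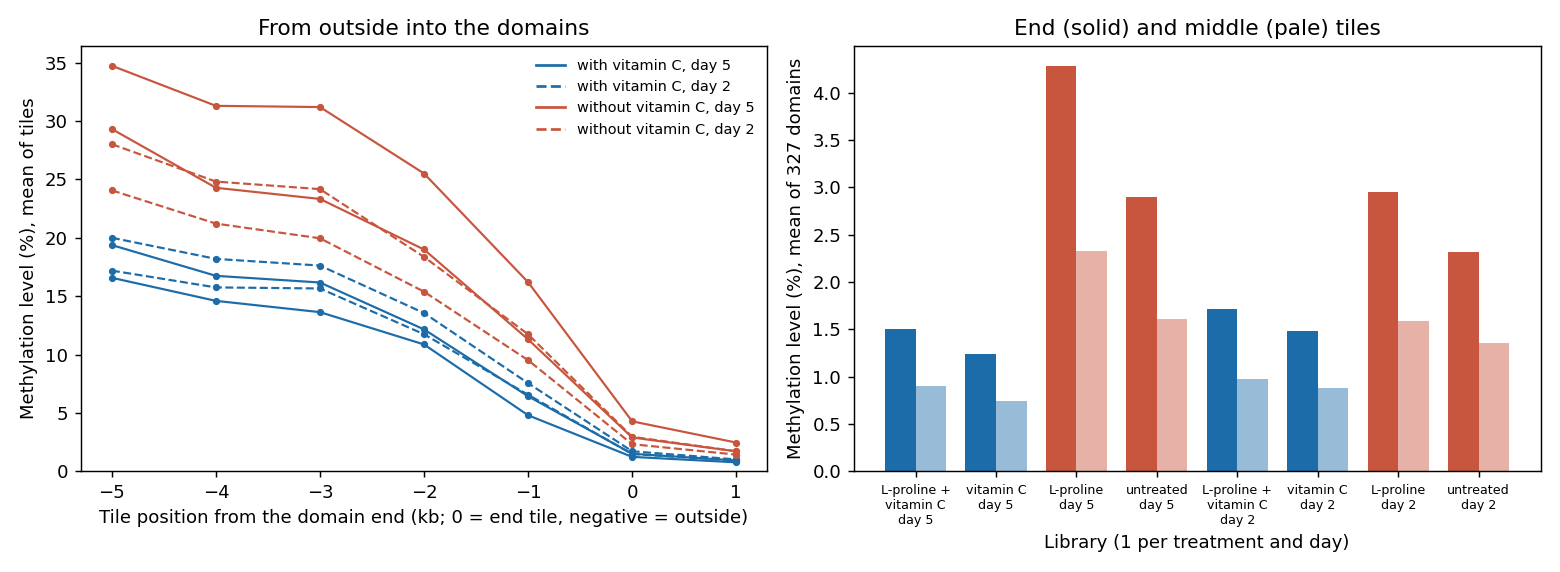
The left panel gives the mean methylation level (%) by tile position from the domain end in kb (0 is the end tile, negative is outside), one line per library, and the right panel gives the mean over 327 domains of end tiles (solid) and middle tiles (pale). The lines without vitamin C (red) lie above those with it (blue) at every position. The solid bar is the taller in all 8 libraries.

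Around gene starts levels were low, and they were higher beyond 1000 bases. In the first 250 bases downstream CpGs averaged 0.524% with vitamin C and 0.697% without it, and in the last 250 bases upstream 0.805% and 1.10%. The upstream value was above that at 250 to 500 bases upstream, which was 0.578% and 0.876%. CpGs within 250 bases of a placed start averaged 0.658% with vitamin C and 0.886% without it (6076 CpGs in 177 domains). At 250 to 1000 bases the means were 0.693% and 1.29% upstream, and 0.729% and 1.18% downstream. At 1000 to 2000 bases they were 1.59% and 2.85% upstream, and 1.57% and 3.49% downstream. Levels were lower with vitamin C in 4 of 4 pairs in each of these classes, and the ratio was 0.749 at starts and 0.460 at 1000 to 2000 bases downstream. Both levels at starts lie near the lambda background, whose part in the ratio was not tested.

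Tiles that hold a placed start averaged 1.27%, and the other tiles of the same 176 domains 2.34%. The difference was -1.07 ± 0.806 points (SD, n = 8 libraries), lower in 8 of 8 (exact sign-flip permutation p = 0.0078). That p covers the spread between libraries and not between domains. A start could be placed only where at least 8 listed CpGs matched, and these tiles were not compared at matched CpG number. Starts lay in 126 cases in end tiles and in 123 (49.4%) in middle tiles, while 386 of the 1040 domain tiles were middle tiles. In the 148 domains with no placed start, CpGs averaged 1.11% with vitamin C and 2.22% without it. Such domains may still hold a start, since 7118 of the table's 31396 promoters could be placed.

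**Figure D4:**
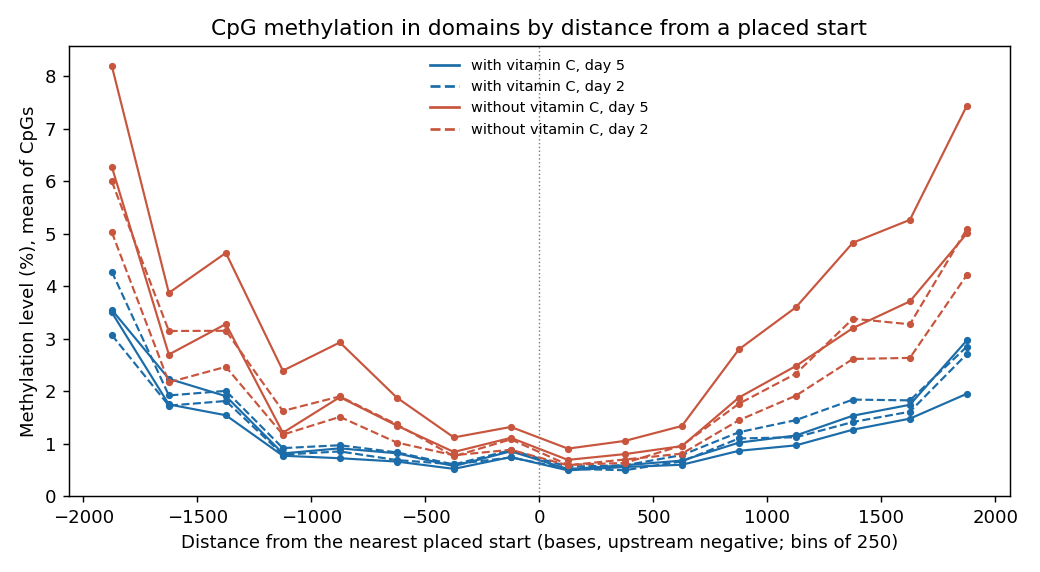
Mean methylation level (%) of domain CpGs is drawn against distance from the nearest placed start in bins of 250 bases (upstream negative), one line per library, blue with and red without vitamin C, solid for day 5 and dashed for day 2. Each line is lowest within 500 bases downstream of the start, and the mean within 250 bases on both sides is 0.658% with and 0.886% without vitamin C.

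Genes of developmental regulators were counted among the placed starts. The list covered many but not all families of such factors, among them Hox, Pax, Lhx, Fox, Sox and Gata, and it does not hold Gbx2 and Cux2, homeobox genes described further on whose starts also lay in domains. Of 80 placed genes on the list, 17 (21.2%) lay in domains, and of 25 placed genes for secreted Wnt, Fgf, Bmp and Hedgehog signals 3 (12%) did. Of all 6178 placed genes, 213 (3.45%) lay in domains. Of the 6 placed imprinted genes and the 6 placed germline genes, 0 did. The 17 listed genes were Dlx2, En1, Foxc1, Foxd2, Foxd3, Foxl2, Foxo3, Foxp4, Gata2, Hoxd11, Lhx4, Lmx1b, Nkx3-2, Pax6, Sall1, Six2 and Sox21. Their domains had a median level of 1.08%, against 0.857% for all domains, and 12 of 17 were lower with vitamin C in 4 of 4 pairs, as were 52.3% of all domains. With L-proline 4 of 17 were higher in 4 of 4 pairs, against 26.9% of all domains.

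Within this list the levels differed by gene. The domain of En1, a homeobox factor of the midbrain-hindbrain region, was at 2.06% with both supplements and 1.23% with vitamin C on day 5, against 10.1% with L-proline and 6.89% untreated. The day 2 levels were 2.85% and 2.83% with vitamin C, against 8.36% with L-proline and 5.57% untreated. The groups did not overlap, and the mean matched difference was -5.49 ± 2.17 points (SD, n = 4 pairs). The domain of Pax6, a regulator of eye and forebrain development, was at 0.601% to 1.76% with vitamin C and 3.13% to 5.43% without it. The domain of Lmx1b, a LIM homeobox factor, was at 0.632% to 1.93% with vitamin C and 2.12% to 4.95% without it. The domains of Sall1, Hoxd11 and Six2 averaged 0.542%, 0.711% and 0.866%, close to the lambda background.

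The 3 Wnt domains were above the median domain. Wnt10b, a ligand of the canonical Wnt pathway, had a domain at 1.41% with both supplements and 1.13% with vitamin C on day 5, against 5.49% with L-proline and 4.43% untreated. The day 2 values were 1.71% and 1.19% with vitamin C, against 5.05% with L-proline and 4.81% untreated. Its difference of -3.59 ± 0.359 points (SD, n = 4 pairs) was nearly the same in each pair. At Wnt1 the domain was at 0.790% to 2.70% with vitamin C and 4.41% to 4.89% without it, and in the promoter shown above the difference was -5.71 ± 3.10 points. The Wnt3a domain was at 0.845% to 1.05% with vitamin C and 1.14% to 2.83% without it.

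The longest domain covered 7 tiles on chr2:31490001-31497000 around Prdm12, a regulator of pain-sensing neurons, with 140 CpGs. It was at 1.03% to 1.17% with vitamin C and 1.72% to 3.78% without it, and its tiles averaged 1.11% to 5.22%. A domain of 6 tiles on chr4:48055001-48061000 at Nr4a3, an orphan nuclear receptor gene, averaged 0.546%, and no tile mean over the 8 libraries exceeded 1.03%. The 5-tile domain at Bahcc1 on chr11:120094001-120099000 averaged 0.922%. A 5-tile domain with no placed gene on chr5:111845001-111850000 was split along its length, with tile means of 0.433%, 0.486%, 7.29%, 15.6% and 10.1%.

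The other domain of 6 tiles stood apart in coverage. It lay on chr17:39980001-39986000, with 6 tiles and 375 CpGs. Its tiles had 2787 to 4291 reads per CpG on average, where the median domain tile had 44.0. It was at 1.66% with both supplements and 1.27% with vitamin C on day 5, against 2.22% with L-proline and 1.46% untreated. In the day 2 libraries it stood at 1.68% and 1.40% with vitamin C, against 1.82% with L-proline and 1.71% untreated. The groups overlapped, and the difference of -0.297 ± 0.191 points was small. Whether reads from several copies of a sequence were counted at this place was not tested, so the levels may not be those of a single locus. Pooling the reads of all domain tiles gives this domain great weight, and tile means, as used here, do not.

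The domain of highest level was that of Clcn4, on chr7:7250001-7253000, at 43.1%. Its first 2 tiles averaged 0.703% and 0.671%, and the third, which holds the promoter shown above, 57.6%. The third tile was at 55.4% with both supplements and 57.5% with vitamin C on day 5, against 63.9% with L-proline and 61.9% untreated. The day 2 levels of that tile were 57.3% and 50.3% with vitamin C, against 58.9% with L-proline and 55.6% untreated. The groups overlapped, but the tile was lower with vitamin C in 4 of 4 pairs, with a difference of -4.96 ± 2.84 points. The whole domain was also lower in 4 of 4, with a difference of -4.89 ± 3.16 points. This tile had 312 reads per CpG, against 42.5 and 44.8 in its neighbours, so the level of the whole domain depends on read weighting: it was 15.8% as a mean of CpG values. It is one of 7 domain tiles in 2 domains with more than 5 times the median reads per CpG, the others being those of the chromosome 17 domain. Whether its reads came from this place alone was likewise not tested, which limits what the 57.6% of the tile and the 43.1% of the domain stand for.

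The other 4 highest domains were, like that of Clcn4, lower with vitamin C in 4 of 4 pairs. On chr12:85910001-85913000, with no placed gene, the level was 13.3% with both supplements and 8.24% with vitamin C on day 5, against 34.7% with L-proline and 26.6% untreated. Day 2 gave 14.3% and 12.6% with vitamin C, against 26.5% with L-proline and 21.03% untreated. The groups were far apart, by -15.1 ± 5.86 points (SD, n = 4 pairs). On chr19:7495001-7498000 the level was 7.53% to 14.1% with vitamin C and 16.6% to 21.1% without it. On chr2:25432001-25436000 it was 3.06% to 6.66% and 8.64% to 21.3%. At Gata2, on chr6:88148001-88151000, it was 4.68% to 6.72% and 10.5% to 17.2%.

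**Figure D5:**
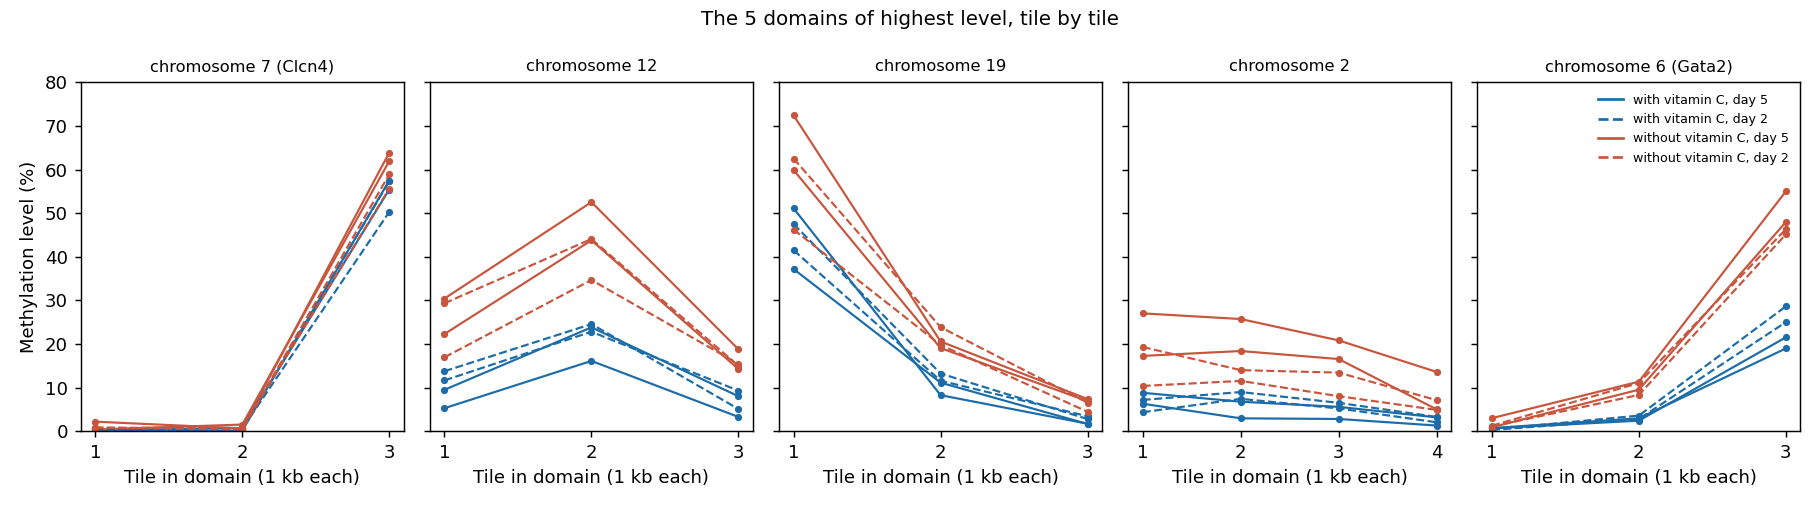
Methylation level (%) of each tile of the 5 highest domains in the 8 libraries, blue with and red without vitamin C, by tile position along the domain. In the Clcn4 domain the first 2 tiles are under 3% and the third lies at 50.3% to 63.9% in every library, and in the Gata2 domain the third tile lies at 18.97% to 28.6% with vitamin C and 45.1% to 55.0% without it.

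Gata2 shows the step from an unmethylated promoter to a methylated end. The promoter tile averaged 1.04%, the middle tile 6.51% and the far end 36.1%. The far end, chr6:88150001-88151000, was at 18.97% with both supplements (95% Wilson interval 15.002 to 23.7) and 21.5% with vitamin C on day 5, against 55.0% with L-proline (50.3 to 59.6) and 47.95% untreated. Day 2 gave 28.6% and 25% with vitamin C, against 45.1% with L-proline and 46.3% untreated. The groups did not overlap, and the difference of -25.1 points with an SD of 8.34 over 4 pairs (adjusted p = 0.0141 in limma) was the largest among called domain tiles.

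Next came the tile of the Tmem59l promoter, chr8:73011001-73012000. It was at 9.58% with both supplements and 7.13% with vitamin C on day 5, against 44.3% with L-proline and 32.45% untreated. Its day 2 levels were 14.7% and 11.5% with vitamin C, against 31.2% with L-proline and 27.1% untreated. The difference was -23.0 ± 8.94 points (limma adjusted p = 0.0105), and the groups were again apart. Here the methylated tile holds the start itself.

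The other 3 of the 5 largest losses were ends or middles away from a placed start. The middle tile of the chromosome 12 domain differed by -21.9 ± 8.55 points, with 16.1% to 24.6% with vitamin C and 34.7% to 52.5% without it. An end tile at Sympk, whose product is a scaffold of mRNA 3' end processing, was at 13.4% to 23.2% with vitamin C and 21.5% to 57.1% without it, so these groups overlapped. Its difference was -18.5 ± 12.99 points (limma adjusted p = 0.0332). An end tile at Cux2, a homeobox gene of upper cortical layers, was at 3.40% to 8.33% with vitamin C and 12.8% to 41.1% without it, a difference of -18.1 ± 12.7 points.

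The largest gains with L-proline were in end tiles, and none passed limma. The first tile of the chromosome 19 domain, chr19:7495001-7496000, was on day 5 at 51.1% with both supplements and 72.4% with L-proline, against 37.2% with vitamin C and 59.9% untreated. Day 2 gave 47.5% and 62.5% with L-proline, against 41.5% and 46.2% without it. The difference was 12.2 points with an SD of 4.403 over 4 pairs (adjusted p = 0.342 in limma), and it was found both with and without vitamin C. The Sympk end tile differed by 11.1 ± 8.89 points, one at Fzd10, a Wnt receptor gene, by 9.30 ± 5.35 and one at Ephb2, an ephrin receptor gene, by 8.89 ± 4.47. At Gbx2, a homeobox gene expressed in embryonic stem cells and the early hindbrain, an end tile on chr1:91825001-91826000 was at 7.79% to 20.7% with L-proline and 2.37% to 6.29% without it. These groups did not overlap, and the difference of 8.46 ± 4.32 points had a limma adjusted p of 0.222.

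Gains with vitamin C were all under 1 point. The largest was at Ctcf, which encodes an insulator-binding zinc finger protein, in the end tile chr8:108159001-108160000. That tile was at 0.229% to 1.37% with vitamin C and 0% to 0.537% without it, a difference of 0.785 ± 0.540 points (limma adjusted p = 0.0400). An end tile at Smarca2, an ATPase of the SWI/SNF remodelling complex, differed by 0.479 ± 0.223 points (limma adjusted p = 0.0365). The other 3 of the 5 largest, on chromosomes 10, 4 and 2, differed by 0.657, 0.574 and 0.380 points and did not pass. All 5 lie at levels near the lambda background.

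With day, the largest gain was 6.61 ± 1.95 points in the end tile chr10:79580001-79581000. That tile was on day 5 at 15.1% with both supplements, 6.41% with vitamin C, 24.9% with L-proline and 16.4% untreated, against 7.96%, 2.69%, 17.02% and 8.66% on day 2. Each treatment was higher on day 5, with a limma adjusted p of 0.621. Next were an end tile at Map3k11 and Pcnx3 (5.71 ± 5.87 points) and a middle tile on chromosome 10 (4.56 ± 3.78). The largest losses were -2.35 points in the middle tile of the chromosome 19 domain, -2.22 in an end tile on chromosome 4 and -1.80 in an end tile on chromosome 19. None of these 6 passed limma for day.

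The contrast of ends and middle was widest in 3 domains in each direction. The ends exceeded the middle by 28.5 ± 2.23 points at Clcn4, by 13.6 ± 6.88 at Sympk and by 12.9 ± 5.43 at Fzd10 (SD over 8 libraries). In each of these 3 domains 1 end was methylated and the other was under 1%. The middle exceeded the ends in the chromosome 12 domain (-18.5 ± 6.04), in a domain on chr5:140027001-140030000 (-8.91 ± 5.32) and at Mmp23, a metalloproteinase gene on chr4:155027001-155030000 (-6.20 ± 4.61). In these 3 the middle tile was at 32.8%, 13.4% and 8.06%, and each was lower with vitamin C in 4 of 4 pairs at the level of the domain.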

How the data were processed

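DNA methylation was measured by RRBS in 8 libraries of mouse embryonic stem cells, 1 for each of 4 treatments on each of 2 days, grouped by their labels. The submitters' processing notes name CASAVA, BSMAP 2.88 and build mm9 without roles or settings. The authors deposited, per CpG, the fraction of reads methylated (0 to 1) and the coverage behind it, with a minimum of 10 reads in every file. The treatment of duplicates, incomplete conversion and reads with several possible places was not given in the sources used.

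From these values, tile levels were computed as the sum of fraction times coverage over the sum of coverage, in percent. Means over tiles weight each tile alike. The 4 matched pairs of each factor, or the 8 libraries, were compared with exact two-sided sign-flip permutation tests, whose smallest p is 0.125 or 0.0078. Methylated and unmethylated reads per tile, rounded and with 1 read added to each, were fitted as log2 ratios in limma 3.58.1 (R 4.3.3) with additive terms and 4 residual degrees of freedom over all tested tiles, with Benjamini-Hochberg adjustment. The additive fit treats an effect that differs between days or treatments as error. The procedure was tested on simulated data. Wilson intervals (95%) and the limit of 3 reads cover counting error only, since reads that share a PCR template are not separate molecules.

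Promoters were placed where every listed CpG of a window lay on a CpG of the sequence, at least 8 matched and the place was the only one on its chromosome. No mm9 genome was used here, so distances rest on this placement.

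The members, gene lists and tests were chosen with earlier results of these data known. Named domains are the 5 longest and the 5 of highest level, and named tiles the 5 largest losses with vitamin C among called tiles, the 5 largest gains with L-proline and with vitamin C and the 3 largest differences with day in each direction, with the same sign in 4 of 4 pairs. For ends against middles, 3 domains in each direction are named. The alternatives were other tile, run, coverage and weighting rules, pseudocounts, centring, a quasi-binomial model and leaving out each library. Other comparison scales, the other dense tiles as the rest, leaving out the deepest and the highest domain, the settings for start tiles and the vitamin C by day term were chosen after seeing the data.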

Additional observations from a re-analysis of the deposited data

Results flagged for a closer look

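The difference between day 5 and day 2 in domain tiles had opposite signs with and without vitamin C in every pair. It averaged -0.188 points with vitamin C and 0.791 points without it, a gap of -0.979 points. Over the 6 ways of grouping the 4 differences of domain tiles, the exact two-sided permutation p was 0.333, the lowest possible. Other dense tiles had the same signs, at 0.740 points untreated and 1.30 with L-proline, and -0.241 with vitamin C and -0.0871 with both supplements. In the same order, sparse tiles of 3 to 10 CpGs were at 5.64, 6.47, -1.71 and -1.07 points. The opposite signs were thus not particular to domains. The gap in domain tiles was read from 1 library per treatment and day, so vitamin C and the single cultures cannot be told apart.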

How the results depend on the processing

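Of 272 recomputed summary values, 250 were counted as kept and 12 reversed. For differences and gaps, kept means the same direction and side of the threshold. For counts of called tiles it means a count close to the main one, and the L-proline and day counts were 0 in every setting. Tests on 4 pairs cannot give a p below 0.125, and tests on fewer pairs cannot go lower. Their side of the threshold was thus fixed in advance, and only their direction could change. For these tests the count says nothing about the threshold. In runs of 5 or more tiles (9 domains), end minus middle became 0.785 points for the response to vitamin C, -0.134 to L-proline, -0.275 to day and -0.606 for the level. In tiles of 21 to 40 CpGs it became -0.00616 for L-proline and -0.0402 for day, and the level difference of 0.0331 no longer passed. On the log2 ratio scale, domains minus the rest became -0.74 for vitamin C, 0.19 with L-proline and 0.044 with day, against 6.44, -3.37 and -1.504 points, end minus middle for day became -0.012, and against other dense tiles the values were -0.38 for vitamin C and 0.068 for L-proline. A ratio and a difference in points are different quantities, so this follows from the scale. The 29 vitamin C calls became 0 after centring, 2 with the quasi-binomial model, 234 with no minimum difference, 80 with 5 points, 3 with CpGs of 20 or more reads (146 domains, 456 tiles) and 5 to 35 with each library left out. Where not stated, the cause was not tested. Without any one library the vitamin C difference stayed between -1.59 and -1.05 points and end minus middle between 0.862 and 1.07. The L-proline difference was 0.306 to 0.628 points and the day difference 0.0322 to 0.472, end minus middle was 0.220 to 0.409 for L-proline and 0.0219 to 0.266 for day, and domains minus the rest for day was -2.37 to -0.695. With 8 or more CpGs per tile there were 528 domains with a mean level of 2.97%, and with 15 or more 199 with 1.67%, against 1.96%. Of 447 values of named tiles and domains, 395 stayed, 42 lost and 5 gained their call, and 5 moved, among them the chromosome 17, chromosome 19 and Clcn4 domains. A fit with replicate number as a block could not be made, since each group has 1 library and the labels give no replicate numbers. The matched pairs compared here are of treatments and days.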
